A study of Mus musculus with 15 samples.

Results

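Exc_2 is 1 of the 26 clusters of excitatory neurons named in the deposited table of cells from the mouse prefrontal cortex (PFC), and its members were the cells that carry that cluster name. There were 681 of them among 35360 retained cells and among 20377 cells of the Exc_ clusters, with 430 from adult (P60) and 251 from P21 mice. Single-cell RNA sequencing was done in 15 droplet libraries of male C57BL/6N mice, with the tissue of a pair pooled for each P60 library. The methods name fewer P21 mice than a pair for each P21 library and do not say how they were divided, so that P21 libraries may share animals. The 12 P60 libraries came from mice of 8 to 10 weeks that self-administered saline or cocaine through a jugular catheter after food training, with 2 libraries for each treatment at the maintenance phase, after 48 h of withdrawal and after 15 days of withdrawal. The 3 P21 libraries came from mice of 3 weeks with no self-administration, so that age, catheter and training change together between these groups. The labels give no genetic modification of the mice. The cluster number is that of the deposited fine clusters, not of the coarser subtypes, and one label field names the nucleus accumbens as the tissue where titles and source name the PFC.

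Excitatory neurons of the cortex release glutamate and are arranged in layers that differ in where their axons go. Neurons of layer 2/3 connect mainly to other cortical areas, whereas those of layers 5 and 6 send axons out of the cortex or to the thalamus. Cux2, a homeodomain transcription factor, and Calb1, the calcium buffer calbindin, are used as markers of the upper layers.

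A library held 16 to 68 Exc_2 cells at P60 and 54 to 133 at P21, which gave 239340 to 1681396 unique molecular identifiers (UMIs, counts of captured transcripts) per library. The median Exc_2 cell held 12556 UMIs and 3803 genes at P60, and 10941 UMIs and 3499 genes at P21. By library, the median was 12614, 8489 and 7421 UMIs at P21 and 10710 to 14368 UMIs at P60. The median mitochondrial share was 2.84%, 3.41% and 3.59% at P21 and 2.33% to 3.10% at P60. The part of these differences in the age results was not tested. Exc_2 made up 1.97% to 6.15% of the excitatory cells of a P60 library and 3.36% to 5.36% of those of a P21 library; by phase the shares were 4.03% to 6.15% at maintenance, 1.97% to 4.40% at 48 h and 2.30% to 2.72% at 15 days. Over 105 pairs of libraries, 1 barcode of an Exc_2 cell was shared. Of the P21 cells, 9 had a deposited class other than excitatory, and the age comparison was also run without them. Saline replicate 1 of 15 days stood apart in the cocaine comparison of that phase, as described with it. All values are UMIs summed over the Exc_2 cells of a library and given as CPM, a gene's UMIs per 1000000 UMIs, without mitochondrial and ribosomal protein genes. Each library was taken as a replicate, but since the P21 libraries may share animals, p-values measure the spread between libraries, which may be technical.

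Both markers were present in Exc_2, although neither was highest there. Cux2 (chr5:122308396-122500111, minus strand, NCBIM37) was at 152.9 ± 47.9 CPM (SD, n = 6 saline libraries) in Exc_2 and at 53.2 ± 8.06 CPM in the other excitatory cells, and was higher in Exc_2 in 12 of 12 P60 libraries. It was the third highest of the 26 clusters, under Exc_6 at 265.0 ± 39.7 CPM and Exc_3 at 238.7 ± 67.9 CPM and just over Exc_9 at 128.3 ± 58.1 CPM, from which it differed by less than the SD. Calb1 (chr4:15808411-15835211, plus strand) was at 214.9 ± 54.9 CPM in Exc_2 against 80.6 ± 25.8 CPM elsewhere and ranked 6 among the clusters. The 5 clusters above it, Exc_5, Exc_3, Exc_1, Exc_4 and Exc_9, lay between 242.7 and 293.0 CPM, and Exc_10 followed at 128.3 ± 35.7 CPM. A UMI of both markers was found in 63.3% of the P60 and 59.0% of the P21 cells, and of neither in 4.65% and 3.19%. Cux2 was detected in 74.0% of the P60 Exc_2 cells, 31.4% of the other excitatory cells and 1.63% of endothelial cells, which should lack it and held a median of 4517 UMIs. With each cell thinned to 2000 UMIs these shares were 26.7%, 8.56% and 0.785%. Calb1 was detected in 84.7%, 35.1% and 1.85% of the same cells, and in 31.9%, 12.8% and 0.757% after thinning.

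**Figure D1:**
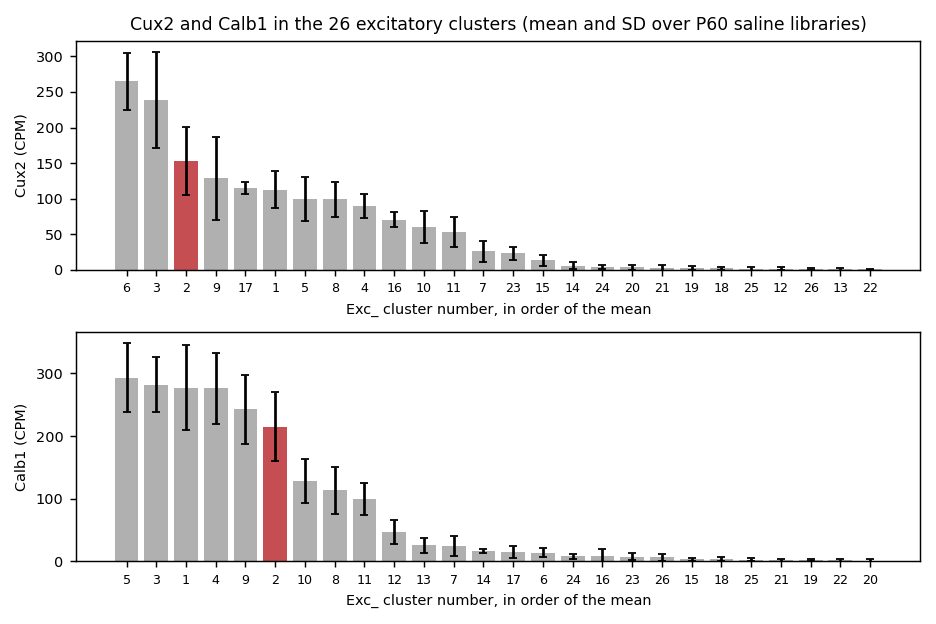
Cux2 and Calb1 (CPM, y axis) in each of the 26 excitatory clusters (x axis, by cluster number in order of the mean), with the mean and SD over the P60 saline libraries. Exc_2 was the third for Cux2 at 152.9 CPM and the sixth for Calb1 at 214.9 CPM.

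The lists of deeper layer genes were lower in Exc_2 in sum, although not in every member. The summed level of the 10 layer 4 and 5 genes was 91.1 to 135.4 CPM in the saline libraries, against 595.2 to 894.8 CPM in the other excitatory cells, and that of the 10 layer 6 genes was 72.9 to 143.4 CPM against 284.0 to 459.0 CPM. No UMI of Fezf2, a transcription factor of subcortically projecting neurons, Foxp2 or Syt6 was found among 2354488 UMIs of Exc_2 in the 6 saline libraries. With 3 counts over the group as the limit of a count of 0, or 1.27 CPM, Fezf2 was at least 26.5-fold lower in Exc_2 than in the other excitatory cells, Foxp2 at least 10.8-fold and Syt6 at least 5.51-fold. Syt6 was also seen in 0 of 430 P60 cells and 0 of 251 P21 cells, which allows shares of cells with a UMI of up to 0.698% and 1.20%. Its absence was not particular to Exc_2, since Syt6 was also at 0 CPM in the saline libraries of Exc_1, Exc_3, Exc_4 and Exc_9. It was highest in Exc_20, Exc_19 and Exc_18, at 100.1, 84.1 and 83.6 CPM. The 13 layer 2/3 genes summed to 1732 to 2089 CPM in Exc_2 and to 1337 to 1535 CPM in the other excitatory cells. Other members were well above 0, such as Crym at 66.6 CPM and Tbr1, a T-box factor, at 41.2 CPM, which were lower than in the other excitatory cells in 12 and 9 of 12 P60 libraries. Cplx3, a complexin of the layer 6 list, was at 19.7 ± 13.6 CPM against 3.08 ± 2.83 CPM, the highest of the 26 clusters and higher in 11 of 12 libraries, and Pou3f1 of the layer 4 and 5 list was 2.82-fold higher. Of the layer 2/3 genes, Lmo4 was lower in 12 of 12 libraries, at 788.4 ± 91.6 against 1116.5 ± 66.2 CPM. The clusters were made from the same cells, so no test of these differences was made.

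The clusters most like Exc_2, by Spearman correlation of mean levels over 8054 genes, were Exc_5 (rho = 0.972), Exc_1 (0.965) and Exc_9 (0.959), followed by Exc_3 (0.956) and Exc_4 (0.948). These rhos are across genes of 1 set of libraries and are given as a description. Of 4774 genes at 30 CPM or more in Exc_2, 122 were over 2-fold and 22 over 4-fold higher than in the other excitatory cells. In 237 genes Exc_2 was the highest of the 26 clusters, but in only 11 of them was it over 1.5-fold above the next cluster, and in 3 over 2-fold.

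The 15 genes with the highest ratio of Exc_2 to the other excitatory cells included Penk, Pdyn, Inhba and Nptx2. Penk, which encodes the enkephalin precursor, was at 162.4 to 322.6 CPM in the saline libraries with a mean of 220.1 ± 55.9 CPM, against 22.7 ± 14.4 CPM in the other excitatory cells, a ratio of 9.69. It was higher still in Exc_1, at 300.6 CPM. Pdyn, the dynorphin precursor, was at 46.0 ± 20.9 CPM against 3.51 ± 1.02 CPM, a ratio of 13.1, and its next cluster was Exc_5 at 29.3 CPM. In single cells a UMI of Penk was found in 61.2% of the P60 Exc_2 cells, 7.31% of the other excitatory cells and 0.617% of endothelial cells. Inhba, which encodes the activin beta A subunit, was at 193.6 ± 34.3 CPM against 18.9 ± 4.60 CPM, a ratio of 10.3, with Exc_13 next at 156.9 CPM. Nptx2, a secreted pentraxin that gathers AMPA receptors at synapses, was at 161.3 ± 35.4 CPM and 7.23-fold higher, but only 1.05-fold above Exc_13.

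Few genes lay well above the next cluster. Igfn1, which encodes a protein with immunoglobulin and fibronectin domains, was at 48.5 ± 18.2 CPM against 3.78 ± 1.44 CPM, and 2.79-fold above the next cluster, Exc_1. Ptgs1, cyclooxygenase 1, was at 45.1, 45.6, 56.7, 58.9, 61.1 and 82.5 CPM in the 6 saline libraries, 2.13-fold above Exc_5. Mt2, a metallothionein, was 2.07-fold above Exc_21 in the mean but ranged from 6.02 to 105.4 CPM between saline libraries, and at P21 it was lower than in the other excitatory cells in 2 of 3 libraries (ratio 0.779). Batf3, a basic leucine zipper factor, ranged from 9.03 to 87.1 CPM and was 1.72-fold above Exc_22. Clec18a at 74.8 ± 16.4 CPM and Jsrp1 at 305.1 ± 37.2 CPM were 1.68-fold and 1.65-fold above the next cluster. The first pair were detected in 39.8% (Igfn1) and 37.0% (Ptgs1) of the P60 cells of Exc_2, against 3.51% and 7.69% of the other excitatory cells.

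Among the remaining genes with the highest ratios were Wfs1, a membrane protein of the endoplasmic reticulum, at 365.5 ± 46.4 CPM and a ratio of 8.37, and Lpl, lipoprotein lipase, at 110.9 ± 30.2 CPM and a ratio of 7.43. Above the next cluster, Wfs1 was only 1.45-fold higher (Exc_5 at 251.5 CPM) and Lpl 1.26-fold (Exc_1 at 88.3 CPM). Wfs1 was detected in 94.9% of P60 Exc_2 cells, 29.1% of the other excitatory cells and 5.72% of endothelial cells. Dmkn (13.3), Pcp4l1 (12.4), Aldh3b1 (8.18), Efcab6 (7.13), Necab2 (6.13) and Fam40b (5.54) completed the 15 highest ratios, all higher in 12 of 12 P60 libraries. Of the 15 genes, all but Pcp4l1 and Batf3 were also higher in 3 of 3 P21 libraries. The 15 genes were chosen by their ratio in the saline libraries, and P21 cells were named by their correlation with P60 clusters. These library counts are thus a description and no independent support. Dmkn and Pcp4l1 were higher in 1 other cluster, Exc_13 at 76.7 CPM and Exc_1 at 57.5 CPM. The lowest ratios belonged to Fezf2, Tshz2, Zmat4, Rorb, Pamr1, Plcxd3, Sulf2, Tcap, Tmem91 and Pcp4, each lower in Exc_2 in 12 of 12 libraries. Rorb, a nuclear receptor of layer 4 neurons, was at 3.29 ± 2.18 CPM against 70.4 ± 20.7 CPM, and Pcp4, a calmodulin-binding peptide, at 166.3 ± 143.8 CPM against 1862 ± 470 CPM. Exons of Pcp4 overlap those of Igsf5 on the same strand.

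**Figure D2:**
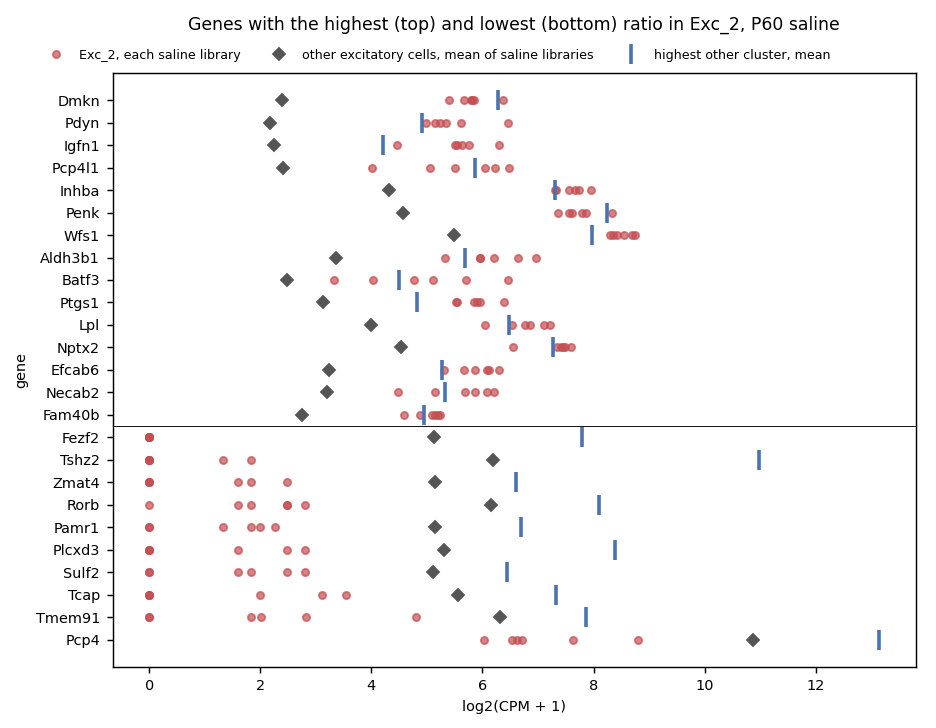
Levels, as log2(CPM + 1) on the x axis, of the 15 genes with the highest and the 10 with the lowest ratio between Exc_2 and the other excitatory cells in the P60 saline libraries, with genes on the y axis. The top genes lie to the right in Exc_2, such as Penk at 220.1 against 22.7 CPM, and the bottom genes to the left, such as Rorb at 3.29 against 70.4 CPM.

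P21 was compared with P60 saline to ask which genes of these neurons differ between early adolescence and adulthood. A gene was called where it differed by more than 1.5-fold and its p from edgeR's quasi-likelihood test, after Benjamini-Hochberg adjustment over all genes tested, was under 0.05. Of 6333 genes tested, 607 were called (9.58%), 356 higher at P21 (5.62%) and 251 lower (3.96%), with a median log2 change of -0.02 over all genes. In the other excitatory cells of the same libraries, 387 of the 607 were also called in the same direction, and 0 in the opposite direction. That fit sums many more cells, and its share of all genes called is not given here. In 56 of the 607 the change was called as different from that of the other excitatory cells, beside 1.4% of all genes in the test described below. The libraries of the groups did not overlap for 278 of the higher and 196 of the lower genes. A call favors such separation, and its share over all genes is not given here, so these counts are no further support. With P21 replicates 2 and 3 summed as 1 library, 538 genes were called. Without the 9 cells of other classes, an alternative chosen after seeing the data, 598 genes were called and 581 of the 607 remained. Without P21 replicate 3 the lower genes fell to 145, and without P21 replicate 1 there were 307 higher and 357 lower. No library holds both ages, so library preparation and age cannot be told apart.

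Genes that rose at P21 were led by Marcksl1, which encodes a protein of the MARCKS family that binds actin and membranes. It was at 263.2, 229.9 and 237.9 CPM in the P21 libraries and at 0 to 6.08 CPM (median 4.92) in the saline libraries, and the P60 cocaine libraries lay at 0 to 4.70 CPM. The groups did not overlap, and the log2 change was 5.76 ± 0.28 (SE; adjusted p = 1.55e-17, edgeR). A UMI was found in 75.3% of the P21 and 1.86% of the P60 cells, against 66.7% and 22.5% of the other excitatory cells. Ier2, an immediate early gene, was at 72.7, 27.3 and 38.6 CPM at P21 and at most 3.82 CPM in saline, and rose by 4.45 ± 0.46. Aldh1a3, an enzyme that makes retinoic acid, was at 33.4, 34.1 and 40.7 CPM against at most 9.03 CPM in saline and rose by 3.13 ± 0.44. Gm17322 (3.09), Tmem42 (2.89) and Gm10071 (2.67) followed. The genes with the largest rises were chosen among called genes with no overlap between P21 and saline, so their separation is no result.

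Cox5a, Tmem93 and Cck were high at P21 but also in part of the P60 libraries. Cox5a, a subunit of cytochrome c oxidase, was at 1490, 662.3 and 531.5 CPM at P21, 95.8 to 281.6 CPM in saline, and up to 764.1 CPM in cocaine libraries. Cck, the cholecystokinin precursor, was at 7035, 2219 and 1914 CPM at P21 and 469.7 to 1784 CPM in saline, with the highest saline library far above the median of 576.2 CPM. Its change of 2.25 ± 0.58 had an adjusted p of 0.0499 (edgeR), and with all 12 P60 libraries neither Cck (adjusted p = 0.104) nor Cox5a (adjusted p = 0.0639) nor Tmem93 (adjusted p = 0.0738) passed.

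Genes that fell at P21, and so were higher in adults, were led by Ass1, argininosuccinate synthase of the urea cycle. It was at 1.31, 0 and 0 CPM at P21, and at 45.8 to 87.0 CPM (median 52.2) in saline, a log2 change of -5.80 ± 0.50. Batf3 was at 0, 0 and 4.29 CPM against 9.03 to 87.1 CPM and fell by 5.04 on the log2 scale, and Agmat, agmatinase, fell by 4.34. With P21 levels at or near 0, the sizes of these falls rest on few UMIs and are uncertain. Nrsn2, Tnnt2, a troponin T, and Myh14, a nonmuscle myosin heavy chain, fell by 3.39, 3.27 and 3.23. Plk5, Rnf207, H2-T22 and Blnk fell by 2.90 to 3.02. These 10 genes were chosen among called genes with no overlap between the groups, so their separation is no result.

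**Figure D3:**
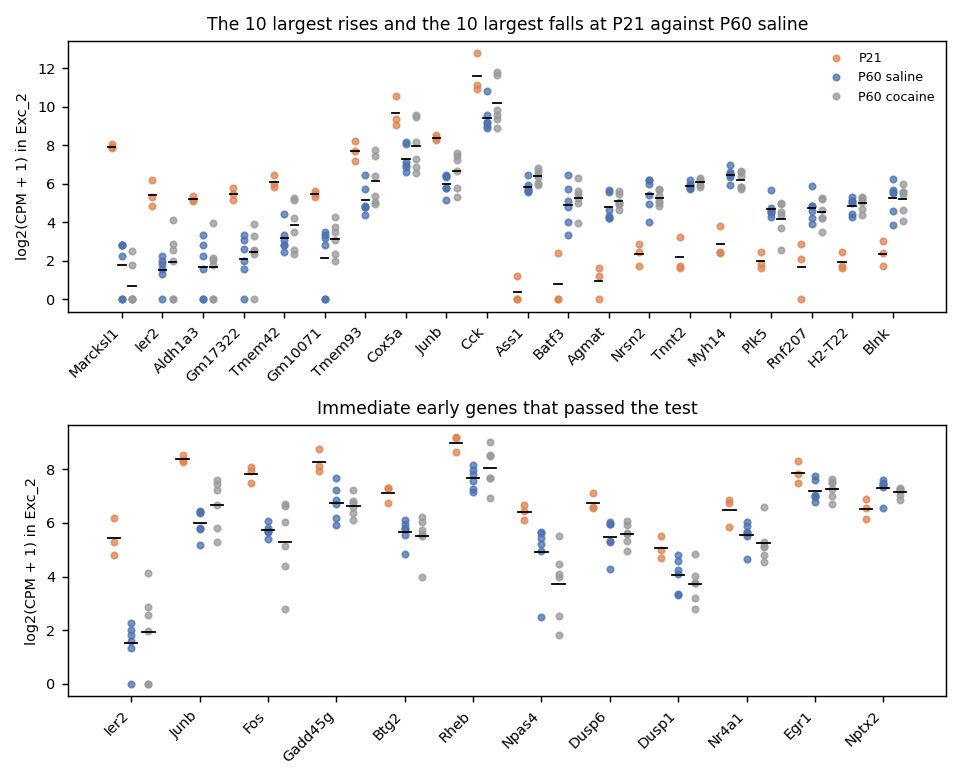
Levels in Exc_2, as log2(CPM + 1) on the y axis, of the 20 genes with the largest rise or fall between P21 and P60 saline, 1 point per library. For Marcksl1 all P21 libraries lie at 229.9 CPM or above and all saline libraries at 6.08 CPM or below, and Ass1 shows the opposite order.

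Of the marker genes, Calb1 rose at P21 and Cux2 did not pass the test. Calb1 was at 606.3, 466.6 and 370.8 CPM against 160.4 to 307.8 CPM in saline, with no overlap and a log2 change of 1.14 ± 0.20 (adjusted p = 0.00104, edgeR). The P60 cocaine libraries lay at 169.8 to 412.8 CPM and so reached into the P21 range. Calb1 also rose in the other excitatory cells, by 0.91, and the difference from them was not called (0.17, adjusted p = 0.515, edgeR). The change of Cux2 was 0.06 ± 0.19 (adjusted p = 0.899), with 138.8 to 189.9 CPM at P21 and 95.2 to 227.8 CPM in saline. Wfs1 fell by 0.81 ± 0.14 and was at 201.5 to 216.1 CPM at P21 against 313.9 to 426.2 CPM in saline. Lpl fell by 0.62 ± 0.21, with overlapping groups.

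The genes of both opioid peptide precursors described above rose at P21. Penk was at 418.4, 323.2 and 409.3 CPM at P21 and 162.4 to 322.6 CPM in saline, and rose by 0.80 ± 0.16 (adjusted p = 6.09e-04, edgeR). Pdyn was at 106.7, 86.5 and 145.7 CPM against 30.7 to 87.1 CPM, and rose by 1.35 ± 0.23, with 1 P21 library inside the saline range. Of the 19 tested genes of neuropeptides, their processing and receptors, 3 rose (Penk, Pdyn and Cck) and 2 fell, with a list median of -0.20. Of all genes tested, 5.62% were called higher and 3.96% lower. Scg2, secretogranin II, was at 557.2 to 650.2 CPM at P21 against 788.2 to 1128 CPM and fell by 0.74 ± 0.13, and Npy1r, a neuropeptide Y receptor, fell by 0.80 ± 0.25.

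Genes of the growing axon and immediate early genes were among those called, beside 5.62% of all genes called higher and 3.96% lower. Of 22 tested genes of axon growth and the growth cone, 6 rose and 0 fell, with a median log2 change of 0.46. They were Marcksl1, Tubb2b (2.00 ± 0.45), a beta tubulin, Kif21b (1.71 ± 0.29), a kinesin, Ncam1 (0.93 ± 0.16), a cell adhesion molecule, Crmp1 (0.89 ± 0.19) and Marcks (0.79 ± 0.17). Of 20 immediate early genes, which are switched on by activity or stress, 11 rose and 1 fell, with a median of 0.74. Fos, a leucine zipper factor, was at 177.4, 273.1 and 244.3 CPM at P21 and 41.2 to 66.8 CPM in saline, and rose by 2.05 ± 0.18. Junb, its partner, was at 328.0, 371.0 and 308.6 CPM against 35.0 to 87.0 CPM and rose by 2.33 ± 0.19. Npas4, Dusp6, Btg2, Gadd45g and Rheb also had groups that did not overlap, and Egr1, Nr4a1 and Dusp1 had overlapping groups. A UMI of Fos was found in 98.4% of P21 and 98.2% of P60 endothelial cells of the same libraries, against 59.8% and 30.9% of Exc_2 cells. The shares in the other excitatory cells were 61.1% and 45.6%. The part of free RNA, or of tissue dissociation, in these values was not tested. Nptx2, which is also on this list, fell by 0.75 ± 0.20. Junb also rose in the other excitatory cells, by 2.16. In the test against those cells described below, 33 immediate early genes were tested. Of these, 1 had a called higher and 1 a called lower change in Exc_2, beside 1.4% of all genes.

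The sequence before the starts of the immediate early genes was read for 4 motifs, and the motifs and the gene set to print were chosen after values were seen. Of the 11 immediate early genes that rose, 9 had a start in the RefSeq promoter table (GRCm38.p6), and the 250 bases upstream were searched on both strands. TGACG, which lies within the cyclic AMP response element TGACGTCA, was in 7 of these 9 and in 17.8% of 32851 RefSeq starts. TGACGTCA was in 2 of the 9 (1.55% of all starts), TGANTCA in 0 (6.75%) and CACGTG in 3 (6.02%). Over the whole list, 21 of 29 genes with a start held TGACG, 4 TGACGTCA, 1 TGANTCA and 8 CACGTG. Of the 15 genes with the highest ratio in Exc_2, 10 had a start, of which 2 held TGACG and 0 held TGACGTCA. TGANTCA was before 2 and CACGTG before 1 of these 10 genes. The first TGACG of each of the 7 genes is shown in capitals, or CGTCA where it is on the other strand, with 20 bases on each side where the window allows, written 5′ to 3′ along the gene. The windows come from RefSeq, were placed on NCBIM37 by exact match, and are shown so that the letters behind the count can be seen.
Fos, chr12:86814691-86814735, plus strand: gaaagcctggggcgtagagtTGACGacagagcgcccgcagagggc
Junb, chr8:87502729-87502773, minus strand: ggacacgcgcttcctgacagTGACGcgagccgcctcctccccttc
Nr4a1, chr15:101097027-101097068, plus strand: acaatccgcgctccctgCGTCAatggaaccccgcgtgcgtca
Npas4, chr19:4990126-4990170, minus strand: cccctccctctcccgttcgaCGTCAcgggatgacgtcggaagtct
Dusp1, chr17:26645584-26645628, minus strand: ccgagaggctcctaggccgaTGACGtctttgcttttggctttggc
Btg2, chr1:135975874-135975918, minus strand: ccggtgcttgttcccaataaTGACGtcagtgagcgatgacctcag
Rheb, chr5:24348402-24348429, minus strand: tcaTGACGcagcgagtttcggtcgtgac
The motif ended 124 bases before the start of Fos and 101 bases before that of Junb. The whole TGACGTCA is in the window of Btg2, and for Dusp1 it lies elsewhere in the 250 bases and is not shown. The window of Rheb lies before its RefSeq start but inside the gene as annotated on NCBIM37 (chr5:24308641-24348442, minus strand). A match describes letters only.

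The other lists are given by their counts, beside 9.58% of all genes called, and shares near that are no result about a list. Of 43 chromatin regulators, 7 rose and 1 fell (median 0.12): Yeats4 (1.88 ± 0.24), a subunit of chromatin complexes, Hmgn1 (1.18 ± 0.20), a nucleosome binding protein, Chd3, a chromatin remodeler, Mbd3, Ube2d3, Tet3 and Hmgn2 rose, and Mll1, a histone methyltransferase, fell by 0.72. Of 33 ion channel genes, 1 rose (Kcnk1, a potassium channel) and 2 fell, with a median of -0.28. Of 51 adhesion and guidance genes, 2 rose (Lrrtm1 and Nlgn3) and 5 fell, among them Nrxn3, a presynaptic neurexin, from 336.9 to 535.4 CPM in saline to 220.8 to 267.1 CPM at P21. Of 25 glutamate receptor and scaffold genes only Grin3a was called, higher, and of 13 GABA receptor genes 0 were called by edgeR. Of 29 vesicle release genes, Syt13 rose and Snap25, a SNARE protein, fell from 4842 to 5944 CPM to 2912 to 3168 CPM. Of 77 respiratory chain genes, 4 rose (Cox5a, Ndufab1, Uqcrfs1 and Atp5d) and 1 fell (Ndufv1). Of 19 cholesterol genes, 3 were called, all higher, among them Sqle, squalene epoxidase, and Insig1, a regulator of sterol synthesis. Of 29 calcium signaling genes, 4 rose and 3 fell, of 20 heat shock genes Hsf2 rose and Hspa1a fell, and of 6 monoamine genes Rgs4 rose.

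Markers of other cells were low in Exc_2, and their sums overlapped between the ages. The summed level of 11 inhibitory neuron genes was 57.9 to 196.4 CPM at P21 and 2.02 to 120.3 CPM in saline, with 4 of the genes at 0 in all saline libraries. That of 10 microglia genes was 17.1 to 252.7 CPM against 41.2 to 76.8 CPM, and that of 10 endothelial genes 25.04 to 150.02 against 22.9 to 53.8 CPM. Oligodendrocyte genes summed to 97.9 to 208.9 CPM at P21 and 66.8 to 203.8 CPM in saline, and astrocyte genes to 27.3 to 68.1 and 12.1 to 97.3 CPM. The sums of 8 oligodendrocyte precursor genes were at most 18.2 CPM. The age fit without the P21 cells of other deposited classes, 8 of them in P21 replicate 1, kept 581 of the 607 calls. Any further part of these markers in the age calls was not tested.

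Whether a change with age was particular to Exc_2 was tested as an interaction, with library as a block, against the other excitatory cells of the same libraries. Of 11922 genes, 167 were called (1.4%), 62 with a higher and 105 with a lower change in Exc_2. Marcksl1 rose by 3.13 more in Exc_2 on the log2 scale (SE 0.32, adjusted p = 5.60e-19, edgeR), since the other excitatory cells still held 33.6 CPM in saline against 3.67 CPM in Exc_2. Ass1 fell by 3.26 more (SE 0.67) and Nrsn2 by 2.56 more (SE 0.37). The value of Ass1 rests on P21 levels at or near 0 in Exc_2, so its size is uncertain. The mix of clusters among the other cells differs by age, and 6 of 9 tested oligodendrocyte genes were called with a lower change in Exc_2, their sum at P21 being 355.1 to 777.0 CPM in the other excitatory cells.

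Against only the 3 most like clusters, Exc_5, Exc_1 and Exc_9, 15 of 9119 genes were called (0.164%), and 9 of these were also among the 167. In this comparison the interaction of Marcksl1 was 0.71 (adjusted p = 0.935) and that of Ass1 was -1.22 (adjusted p = 0.955), so neither change was shown to differ from those of its neighbors. Ptgs1 fell less in Exc_2, from 45.1 to 82.5 CPM in saline to 24.2, 13.7 and 19.3 CPM at P21, than in the neighbors, from 16.8 to 28.6 CPM to 2.39, 0.751 and 1.56 CPM (difference 2.19 ± 0.44, adjusted p = 0.00136, edgeR). S100a10, a calcium-binding family member that joins annexin A2, differed by 0.93 ± 0.17, Nrip1, a nuclear receptor corepressor, by 1.05 ± 0.25, and Tmem9, Edil3, 6330527O06Rik, Prdx3 and Hspa2 by 0.66 to 0.79. Npas4, an activity-induced factor, rose less in Exc_2 (-1.06 ± 0.25), as did Igfbp4, an insulin-like growth factor binding protein (-1.08 ± 0.20). Against all other excitatory cells the differences of Ptgs1 (-0.37), S100a10 (-0.21) and Npas4 (0.39) had the opposite sign and were not called. Sept4 also had a lower change (-1.06 ± 0.23), and its exons overlap those of Gm11492. Cldn11, Cnp and Mbp, which are oligodendrocyte markers, also had a lower change. Mbp, myelin basic protein, was at 81.8, 63.7 and 75.01 CPM in Exc_2 and 160.6, 121.6 and 137.7 CPM in the neighbors at P21, and the part of RNA from oligodendrocytes in these calls was not tested.

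**Figure D4:**
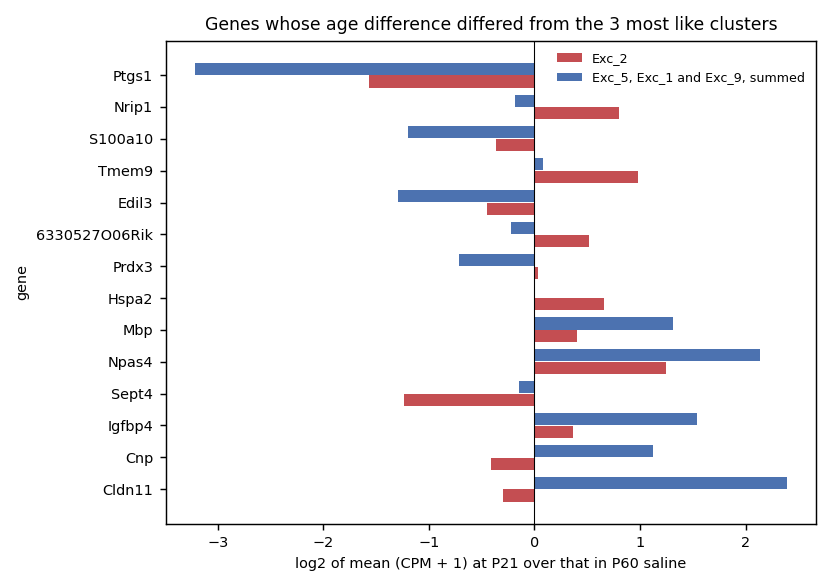
Change with age of genes called against the 3 most like clusters, as the log2 ratio of mean (CPM + 1) at P21 over P60 saline on the x axis, in Exc_2 and in Exc_5, Exc_1 and Exc_9 together, with genes on the y axis and bars without error bars. Ptgs1 fell less in Exc_2 and Mbp rose less, with differences of 2.19 and -0.96 in the fit.

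Cocaine was compared with saline to ask which genes of adult Exc_2 neurons change with self-administration and withdrawal. Over all phases, with phase as a term, 1 of 5862 genes was called (0.0171%), Tomm20, which encodes a receptor of the mitochondrial import pore, and 363 had an unadjusted p below 0.05. Tomm20 was at 153.4 and 136.1 CPM in the cocaine libraries of 15 days and at 30.5 to 57.4 CPM in the other 10 libraries. At maintenance 0 of 6266 genes were called by edgeR (0%; 262 at an unadjusted p below 0.05) and 0 by DESeq2. At 48 h 0 were called by edgeR (0%; 296) and 0 by DESeq2. The call of Tomm20 was lost without any one of the 4 libraries of 15 days and was made without any one of the other libraries. Fits without 1 library called 0 to 13 genes.

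At 15 days of withdrawal, 46 of 6266 genes were called (0.734%), all higher with cocaine, by 0.66 to 2.46 on the log2 scale. All 46 had both cocaine libraries above both saline libraries in Exc_2, and 46 of 46 had the same order in the other excitatory cells. A call favors this order, and its share over all genes is not given here. The other excitatory cells come from the same 4 libraries, so these counts are a description and no further support. Saline replicate 1 was the lowest of the 4 for 42 of them in Exc_2 and for 46 of 46 in the other excitatory cells. Without that library 4 genes were called, 2 higher and 2 lower, of which only Clta was among the 46, and without saline replicate 2, 97 were called higher and 4 lower. Leaving out cocaine replicate 1 or 2 left 14 or 13 genes, and DESeq2 called 1. All but 1 of the 46 calls were thus lost without a single saline library, whose part in the result was not tested further.

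The genes with the largest changes in that comparison were led by Mrps24, and 10 are named. Mrps24 encodes a mitochondrial ribosomal protein whose exons overlap those of Urgcp. It was at 40.7 and 34.8 CPM with cocaine and 7.60 and 5.12 CPM with saline, a log2 change of 2.46 ± 0.55 (adjusted p = 0.00975, edgeR). Dnlz, which partners a mitochondrial chaperone, was at 65.8 and 55.9 CPM against 13.7 and 20.5 CPM, and rose by 1.89 ± 0.37. Sdf2l1, an endoplasmic reticulum protein, was at 75.2 and 86.2 CPM against 13.7 and 38.4 CPM. These 3 genes show saline replicate 1 at or below 13.7 CPM, but for Mrps24 saline replicate 2 was lower, at 5.12 CPM. Dut (1.76), a nucleotide hydrolase, Tmem70 (1.72), an assembly factor of ATP synthase, Mrps34 (1.72), Tomm20 (1.71), Creg1 (1.61) and Gadd45gip1 (1.45) also rose. Clta, a clathrin light chain of coated vesicles, was at 487.0 and 574.5 CPM against 129.3 and 263.7 CPM, and rose by 1.502 ± 0.221 (adjusted p = 3.38e-04). Beside 0.734% of all genes, 1 of 18 immediate early genes (Jund), 1 of 13 GABA receptor genes (Gabbr1), 1 of 77 respiratory chain genes (Cyc1) and 1 of 29 calcium signaling genes (Camk1) were called, and each of these 4 calls was lost without saline replicate 1. For Jund, saline replicate 2 was the lower of the saline libraries of 15 days, at 30.7 CPM against 39.5 CPM in replicate 1. The other lists held no called gene.

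**Figure D5:**
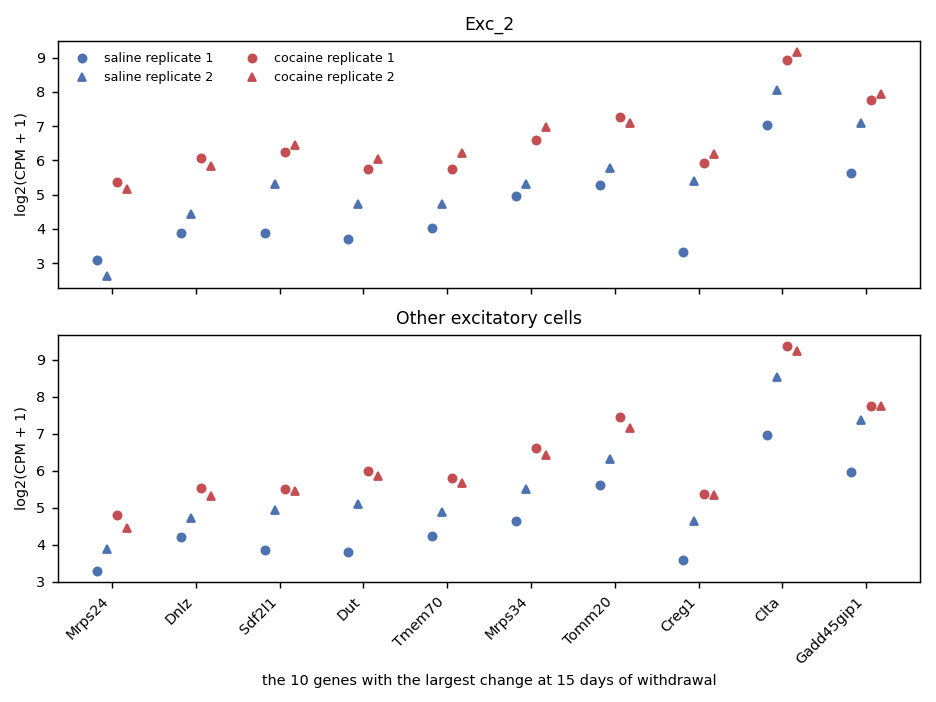
The 10 genes with the largest change at 15 days of withdrawal, as log2(CPM + 1) on the y axis, in Exc_2 and in the other excitatory cells, 1 point per library. Cocaine lies above saline in each, as for Clta at 487.0 and 574.5 CPM against 129.3 and 263.7 CPM, with saline replicate 1 mostly the lowest.

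The cocaine difference was tested against that of the other excitatory cells in the same libraries. Of 11583 genes 2 were called (0.0173%), both lower in Exc_2, and DESeq2 called 0. Sst, a somatostatin precursor of inhibitory neurons, differed by -2.45 and Nnat, neuronatin, by -0.81. In saline replicate 2 of 15 days 33 of 34 Sst UMIs and 59 of 124 Nnat UMIs came from 1 cell. Without that library neither gene was called, and 2 other genes were, both lower. The call of Sst was also lost without cocaine replicate 2 of 48 h and without either cocaine library of 15 days. This interaction pools the phases, and whether the change at 15 days differed between Exc_2 and the other excitatory cells was not tested.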

How the data were processed

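Droplet libraries of mouse PFC were analysed from the deposited UMI counts per gene and cell, which the authors made with Cell Ranger and mm9 (NCBIM37) and left unnormalized. The deposited table of cells gives each cell's class, cluster, total counts and the mitochondrial share as a fraction, which the authors made with Seurat 2.1.0 (submitters' processing notes); P21 cells were named by their correlation with P60 clusters. Doublets had been removed by the study's methods, and no caller was run. The joined expression matrix was not used, and some genes are not reported here. The members and gene lists were chosen with earlier results of these data known. Genes named were those called with no overlap between groups and at least 20 CPM, the 10 largest changes each way, those with the highest and lowest ratios at 30 CPM or more, examples of the marker lists, and called members of the other lists with or without overlap. For the age interaction, the 20 CPM could be met in the other excitatory cells alone. The cocaine interaction genes and those called against the 3 most like clusters were named after their values were seen. Counts of Exc_2 cells were summed per library (at least 10 cells), without 13 mitochondrial and 143 ribosomal protein genes, and tested in edgeR 4.0.16 (R 4.3.3; TMM, filterByExpr, quasi-likelihood, robust), with Benjamini-Hochberg adjustment. SEs were taken from the log2 change and the F statistic. Alternatives were DESeq2 1.42.0, its size factors, no filter, 30 cells as minimum, equal cells, other sets of libraries and leaving out each library. The scripts were tested on simulated data. Summed counts limit low genes: a UMI count of 0 in all saline libraries bounds a level at 3 counts, and such bounds cover counting error only. Tables were handled in Python 3.11.15 with pandas 2.3.3, numpy 2.4.6 and scipy 1.17.1. Gene positions are from GENCODE on NCBIM37.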

Additional observations from a re-analysis of the deposited data

Results flagged for a closer look

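In 16 of 107 groups of libraries looked at, over 54 quantities in Exc_2, 1 library lay far from the others of its group. The cutoff flags about 1 in 20 groups of independent normal values. Low counts from libraries of different phases are not such values, so the number of flags cannot be set against that rate. In saline replicate 2 of 15 days, Cck was at 1784 CPM, Nnat at 317.4, Sst at 87.0, Ass1 at 87.0, Rnf207 at 58.9 and Tmem42 at 20.5 CPM, all the highest of the 6 saline libraries, and Nptx2 at 92.2 CPM was the lowest. In saline replicate 1 of maintenance, Pdyn was at 87.1 CPM and Plk5 at 50.4 CPM, both the highest. In saline replicate 1 of 48 h, Pcp4 was at 445.2 CPM and Tmem91 at 27.1 CPM. Among the cocaine libraries, Lpl was at 164.8 CPM in replicate 2 and Fezf2 at 1.57 CPM in replicate 1 of 15 days, the only one in which Fezf2 was above 0. Aldh1a3 was at 14.8 CPM in replicate 1 and Plcxd3 at 10.4 CPM in replicate 2 of maintenance, and Mt2 was at 8.09 CPM in replicate 2 of 48 h.

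The change with age of Exc_2 differed from that of the other excitatory cells, by the interaction test in edgeR, in the genes below, given as the log2 difference. It was positive for Marcksl1 (3.13), Barx2 (1.85), Pdlim1 (1.81), Gm17322 (1.77), Rasl11a (1.52), D18Ertd653e (1.303), Tnfaip8l1 (1.03), Tpd52l1 (1.03) and Hspa2 (0.97). For Tpd52l1 this was a lesser fall at P21, from 47.5 to 36.8 CPM in Exc_2 and from 141.2 to 56.6 CPM in the other cells. For Cd24a, a cell surface protein of young neurons, the fitted value of 7.50 is no bound, since it was at 0 in all saline libraries of Exc_2. The difference was negative for Cplx3 (-3.83), Ass1 (-3.26), Cldn11 (-2.80), Nrsn2 (-2.56), Lynx1 (-2.17), Blnk (-1.88), Asb11 (-1.79), Dmkn (-1.77) and Cnp (-1.76). That of Ass1 rests on P21 levels at or near 0 in Exc_2. Against the 3 most like clusters, Lynx1 (0.14) and Dmkn (0.22) turned positive and were not called, and Dmkn was at 56.6 CPM at P21 and 56.3 CPM in saline in Exc_2. Among these genes, the change of Cldn11, Cnp and Hspa2 was also called against the 3 most like clusters. The cocaine difference of Exc_2 differed for Sst (-2.45) and Nnat (-0.81), for which 33 of 34 Sst UMIs and 59 of 124 Nnat UMIs of 1 library came from 1 cell.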

How the results depend on the processing

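No paired analysis was possible because the replicate numbers were given in accession order and name samples only. The count of genes called with age was 607, and it was 360 with at least 30 cells per library, 204 with only the saline libraries of 15 days and 239 with equal cells; leaving out 1 library gave 457 to 664. None of 80 genes looked at with age reversed over 1477 values, of which 244 lost the call. The count over all cocaine phases (1) was 0 with DESeq2, 23 with no filter, 4 with its size factors, 83 with at least 30 cells and 0 with equal cells, and 0 to 13 without 1 library. At 15 days (46) it was 1 with DESeq2, 74 with no filter (71 higher, 3 lower) and 96 with only the 4 libraries of that phase, and 4 to 101 without 1 library; leaving out 1 library, chosen after seeing the data for the other phases, gave 0 to 1 at 48 h and 0 to 2 at maintenance. Genes whose age change differed from the other excitatory cells (167) were 57 with DESeq2, which tested 3370 genes against 11922, and 15 of 9119 against the 3 most like clusters, and 102 to 167 without 1 library. Against those clusters Lynx1 (0.14), Dmkn (0.22), Npas4 (-1.06), S100a10 (0.93) and Ptgs1 (2.19) changed sign; the cause was not tested. The cocaine interaction (2), whose alternatives were added after seeing the data, gave 0 with DESeq2 and 1 to 3 without 1 library. Libraries of 16 to 133 cells limit low genes.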
